A study of Mus musculus with 12 samples.

Results

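Matrix metalloproteases, ADAMTS proteases and their tissue inhibitors were followed across 12 mouse brain tumours. Members were the rows of the deposited table whose symbol was Mmp or Adamts with a number, or Timp1 to Timp4, and whose value exceeded 0.2 CPM (reads scaled to library size by the authors) in at least 3 libraries. Of 46 such symbols among the 24054 rows of the table, 41 were members: 18 of 23 Mmp genes, all 19 Adamts genes and all 4 Timp genes. Mmp1a, Mmp1b, Mmp7 and Mmp20 were at 0 in all 12 libraries. Just outside the minimum was Mmp27, above 0.2 CPM in 2 libraries, and just inside it were Mmp8 with 3 such libraries, Mmp3 with 4 and Mmp10 with 5.

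Each tumour grew in the striatum of a female C57BL/6 mouse from injected cells, which the sample labels call ms7080 and the protocol calls BC, and was collected once the mouse showed symptoms. The 4 groups, with 3 mice and 3 libraries each, were old hosts on NMN (nicotinamide mononucleotide, from which cells make NAD) at 300 mg per kg per day, old hosts in parabiosis, in which 2 animals are joined and share a circulation, untreated old hosts and untreated young hosts. Old hosts were 16 months and young hosts 2 months of age, and all carried the same strain background and injected line. How old the parabiosis partners were is not stated in the labels. The young hosts were bought and the old hosts were supplied by an ageing colony, so age and source cannot be told apart. The comparisons asked how the tumour transcripts differ with host age and whether either treatment of old hosts moves them.

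Matrix metalloproteases are zinc enzymes, secreted or held at the cell surface, that are made as inactive precursors and cleave collagens, laminins and many other extracellular proteins. The Adamts enzymes carry thrombospondin repeats; several cut the lecticans, the large proteoglycans of brain matrix, and others trim procollagens. Timp proteins bind the active site of the metalloproteases, and Timp3 also inhibits Adamts enzymes and is held in the matrix. In gliomas the family is known for its part in invasion and in remodelling around vessels.

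The libraries held 18566096 to 26779406 reads, and 3 reads, the detection limit used here (it covers counting error alone), were worth 0.100 to 0.143 CPM. Summed markers of proliferating cells (6 genes) lay between 658 and 1768 CPM. Those of oligodendrocyte precursors (7 genes) lay between 672 and 1862 CPM, so both sets of markers were found in every tumour. Summed neuronal markers ranged more widely, from 131 to 3128 CPM. Xist, a transcript of the inactive X chromosome, was at 5.33 CPM in young replicate 3 and at 1.88 and 2.76 CPM in old replicates 1 and 2 but at 163.6 to 1127 CPM in the other 9 libraries, although all mice are labelled female; Y-linked genes were found in every library. Old replicate 1 also stood apart in its fibroblast markers, at 486 CPM against 25.8 to 110 CPM elsewhere. Tumours were sequenced as bulk tissue, so fewer cells of a type and less RNA per cell cannot be told apart.

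Few members differed between groups beyond the spread of the 3 mice. In the limma fit over 17368 genes, 0 of 41 members and 0% of all genes had an adjusted p under 0.05 in NMN against old, in parabiosis against old, in old against young, in parabiosis against young and in NMN against parabiosis. An F test over the 4 groups likewise called 0 members and 0% of genes, and 7 of 41 members against 17% of genes passed without adjustment. NMN against young tumours was the exception, with 1 of 41 members called, Mmp24, against 6.9% of all genes. On recovered reads edgeR called 0 members in every comparison, against 0.61% of all genes in NMN against young and 0% in each other comparison. DESeq2 called 3 in NMN against young (Mmp24, Adamts2 and Adamts4), 7.32% of members against 14.0% of all genes. In parabiosis against young it also called 3 (Mmp24, Adamts13 and Mmp11), 7.32% against 5.67%. It called 0 in the other 4 comparisons, against 0.305% of all genes in NMN against old and 0.276% in parabiosis against old. The shares of all genes were 0.443% in old against young and 1.37% in NMN against parabiosis. The following accounts therefore give levels, estimates with standard errors (SE) on the log2(CPM + 1) scale and whether the 3 libraries of 2 groups overlapped; estimates on that scale understate changes of genes near or under 1 CPM.

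**Figure D1:**
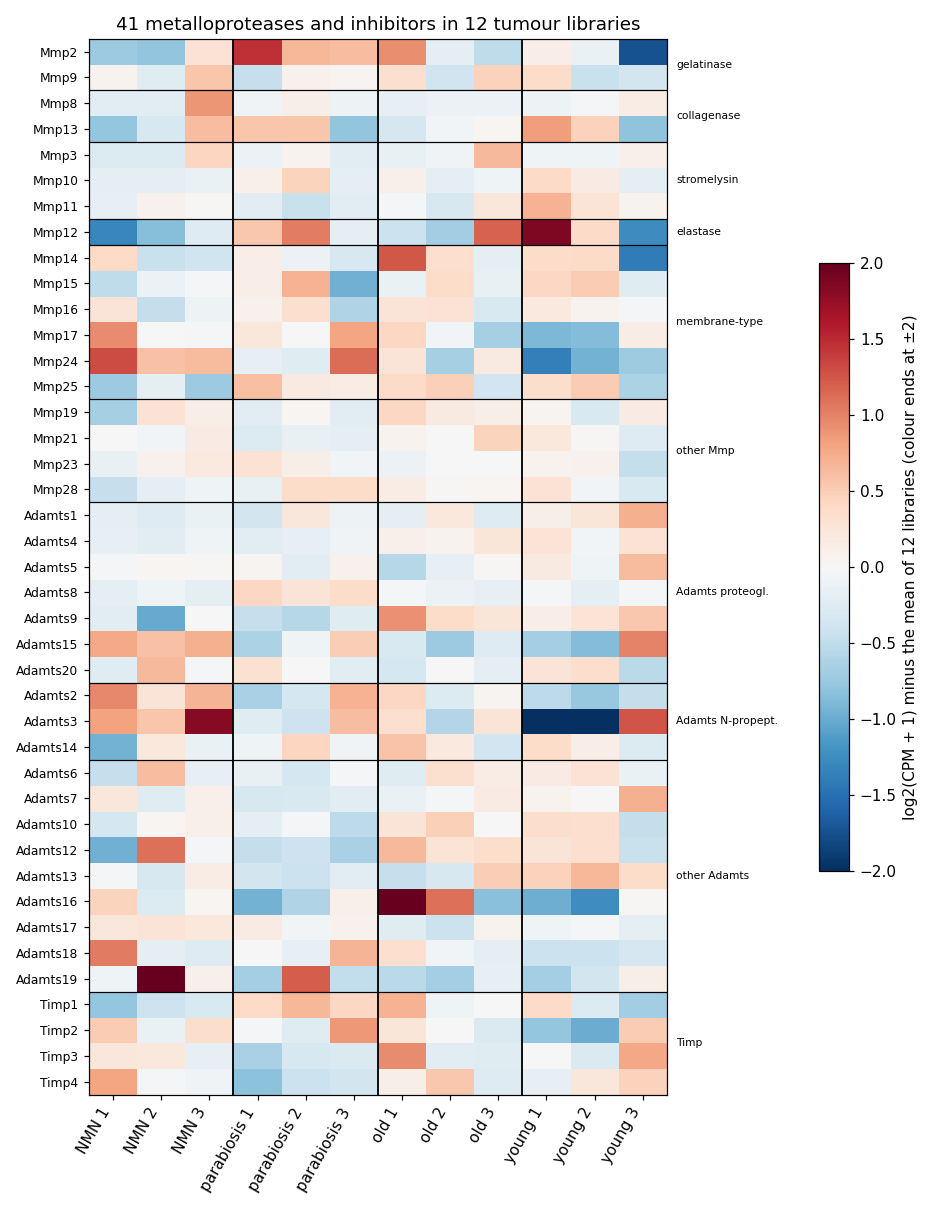
Colour shows log2(CPM + 1) of each of 41 members (rows, grouped by role) minus its mean over 12 libraries, with the libraries of NMN, parabiosis, old and young tumours in columns; the colour scale ends at ±2. Single libraries carry several of the strongest colours, as in Adamts16 of old replicate 1 (22.2 CPM) and Adamts19 of NMN replicate 2 (6.88 CPM).

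Per kilobase of exon, the inhibitors Timp2 and Timp3 had the highest levels of the family. Timp2 averaged 40.8 CPM per kb and Timp3 18.5 CPM per kb over the 12 libraries. They were followed by the membrane-type protease gene Mmp15 at 14.7, Adamts13, whose product cleaves von Willebrand factor, at 10.1, Mmp16, another membrane-type gene, at 9.77 and the proteoglycanase gene Adamts1 at 7.89 CPM per kb. Mmp2, at 6.81 CPM per kb, exceeded the other gelatinase gene, Mmp9, at 0.303 CPM per kb. The lowest were Adamts18 at 0.0608, Adamts19 at 0.0781, the collagenase gene Mmp8 at 0.0816 and the stromelysin genes Mmp10 at 0.0937 and Mmp3 at 0.129 CPM per kb, while the collagenase gene Mmp13 was at 0.660 and the stromelysin gene Mmp11 at 1.30 CPM per kb. Summed over the 19 Adamts genes, the level was 255 ± 13.0 CPM in parabiosis tumours and 328 ± 15.2 CPM in old tumours (SD, n = 3 each), with no overlap between the libraries. NMN tumours had 298 ± 25.7 CPM, with libraries at 268.0, 308.9 and 315.5 CPM. These also lay below those of the old tumours (316.2 to 344.9 CPM), by a narrow gap, and of the young tumours (345 ± 13.6 CPM). The single genes did not shift as a family. In NMN minus old 10 of the 19 were above and 9 below 0, with a median log2 difference of 0.03. In parabiosis minus old 7 were above and 12 below, with a median of -0.04. Adamts9 alone averaged 35.1 CPM in NMN, 33.4 in parabiosis and 65.8 CPM in old tumours. The sum of the 18 Mmp genes overlapped among all groups, at 242 ± 33.0 CPM for NMN, 285 ± 63.2 CPM for parabiosis, 278 ± 56.6 CPM for old and 260 ± 51.0 CPM for young hosts (SD, n = 3 each).

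**Figure D2:**
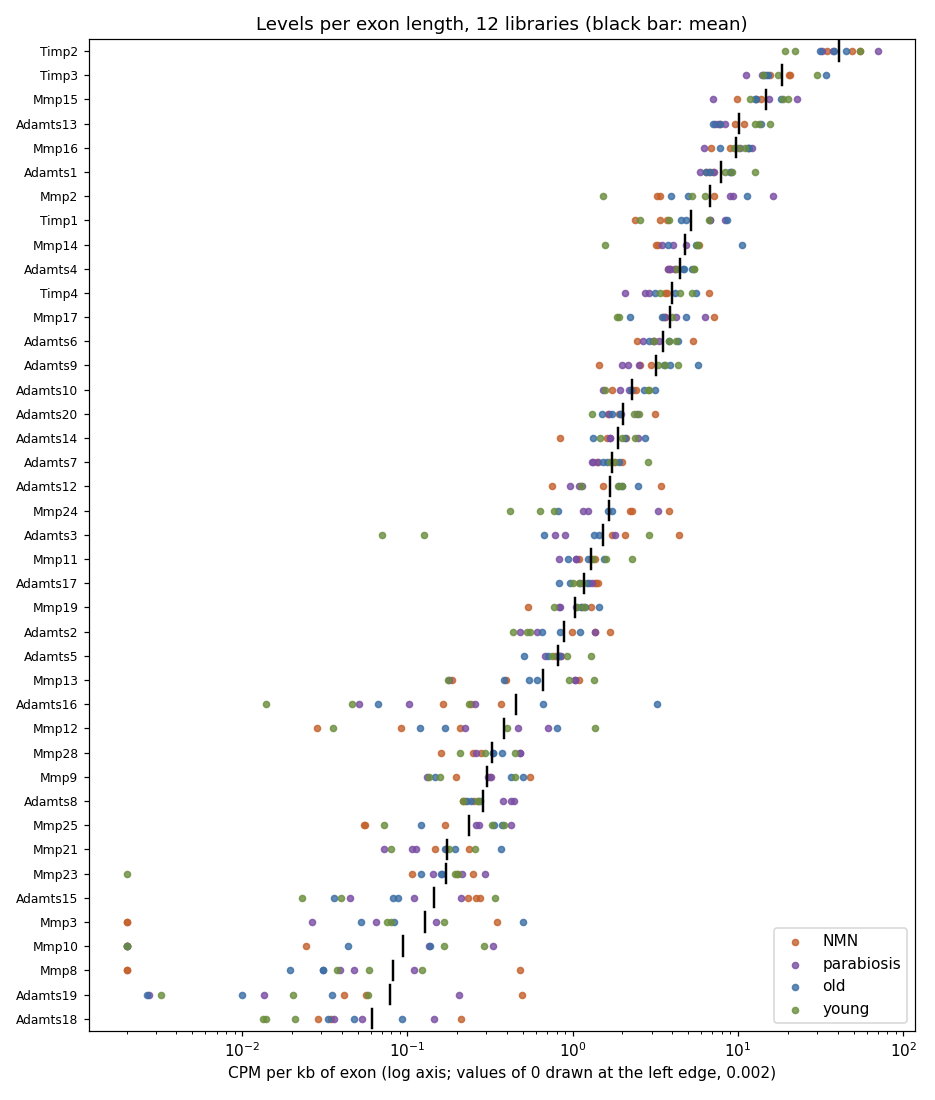
Each point is the level of a member in 1 library in CPM per kb of exon on a log axis, with the mean of 12 libraries as a black bar and values of 0 drawn at the left edge. Timp2 (mean 40.8) and Timp3 (18.5) lie at the top, and the secreted genes Mmp3, Mmp10 and Mmp8 lie among the lowest.

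NMN tumours had lower Adamts9, Timp1, Adamts4 and Mmp28 and higher Adamts19, Adamts15, Adamts3, Mmp24 and Adamts17 than untreated old tumours in the sense that the 3 libraries of each group did not overlap. These were 4 of 41 members lower, against 6.58% of all genes, and 5 of 41 members higher, against 12.2% of all genes; none passed the adjusted test. Without old replicate 1 there were 8 of 41 higher, against 19.7% of all genes, and 4 of 41 lower, against 11.0%. At an unadjusted p under 0.05 there were 6 of 41 members against 10.1% of genes. The median log2 difference of the members was -0.08, against 0.02 over all genes, with 18 above and 23 below 0.

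Parabiosis tumours had 9 of 41 members below untreated old tumours without overlap, against 6.48% of all genes, and 2 of 41 above, Adamts8 and Mmp8, against 6.73% of all genes. The 9 were Adamts9, Adamts12, Timp4, Timp3, Adamts10, Mmp21, Mmp19, Adamts4 and Adamts7. At an unadjusted p under 0.05 there were 6 of 41 members against 5.27% of genes, and 0 passed with adjustment. Without old replicate 1, which has the high fibroblast markers, 10 of 41 members lay below, against 12.6% of all genes, and 5 of 41 above, against 15.8%. The median log2 difference was -0.01, against 0.02 over all genes.

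Old tumours had Mmp24, Adamts2 and Adamts18 above young tumours without overlap, 3 of 41 members against 7.28% of all genes, and only Mmp8, 1 of 41 against 6.21%, below. At an unadjusted p under 0.05 there were 5 of 41 members against 6.77% of genes. The median log2 difference was 0.05, against 0.02 over all genes, with 23 members above and 18 below 0.

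**Figure D3:**
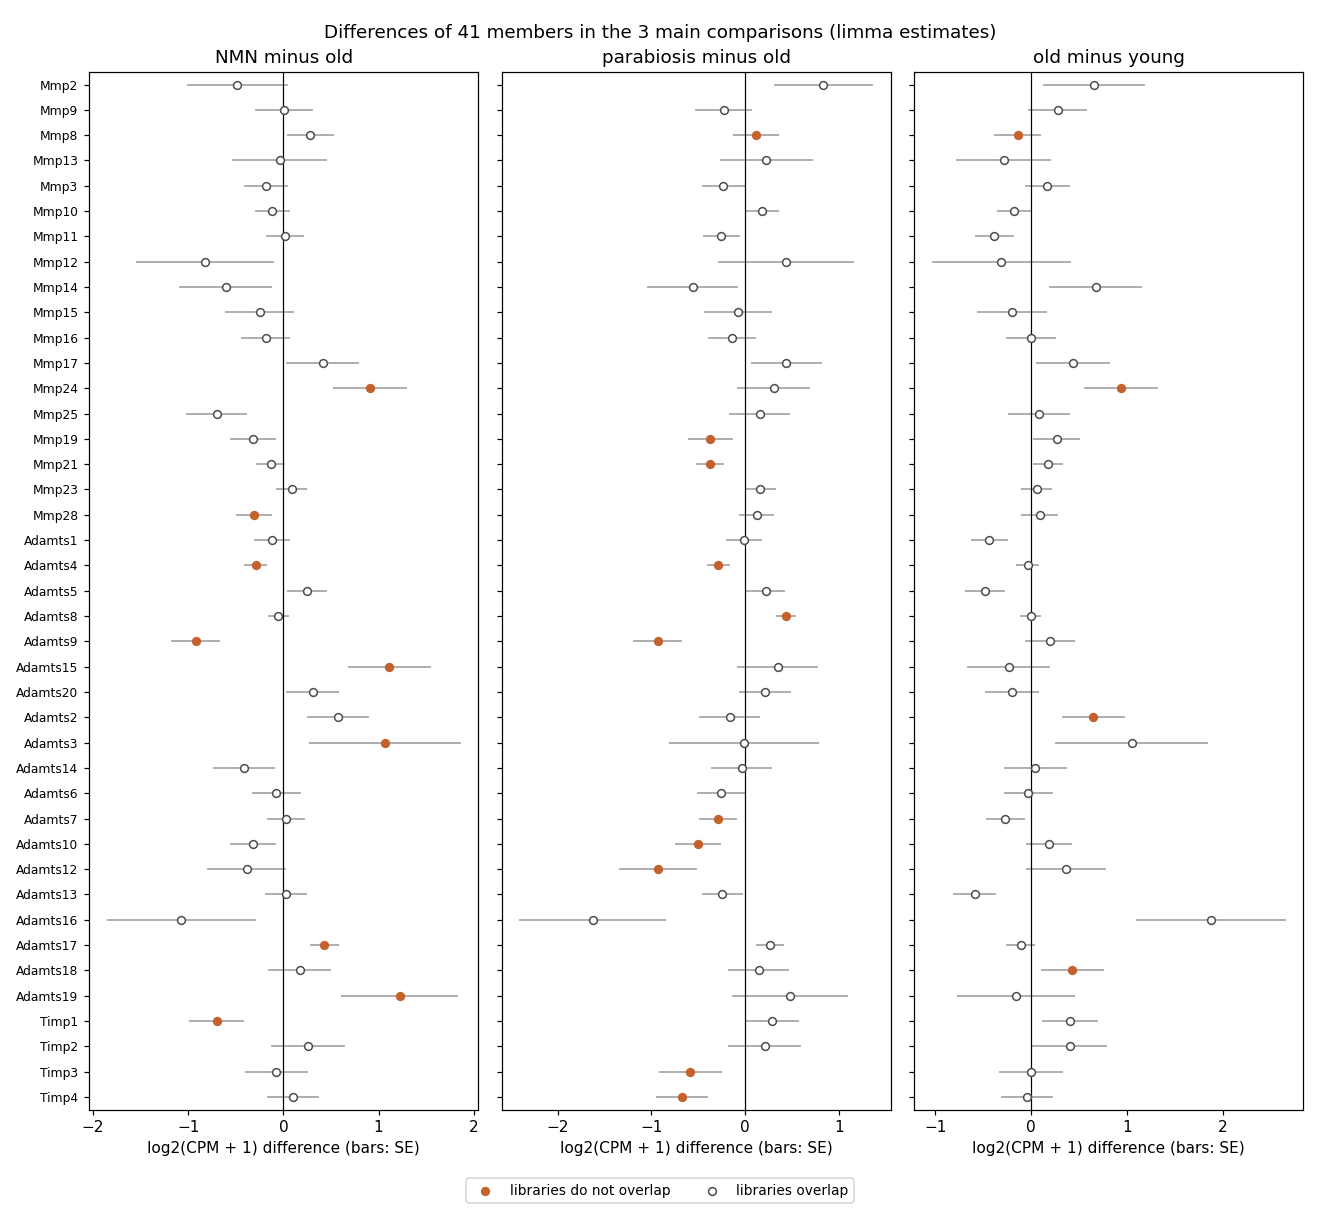
Points give the limma estimate of the log2(CPM + 1) difference of each of 41 members for NMN minus old, parabiosis minus old and old minus young, with SE as bars; filled points mark members whose libraries do not overlap. The estimate of Adamts9 lies at -0.92 in NMN minus old and at -0.93 in parabiosis minus old, both measured against the same old libraries.

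Timp1, a soluble inhibitor induced in reactive glia and stroma, separated the treatments. It was at 2.11, 3.00 and 3.30 CPM in NMN tumours, at 5.98, 7.41 and 6.04 CPM in parabiosis tumours, at 7.60, 4.00 and 4.33 CPM in old tumours and at 5.90, 3.38 and 2.26 CPM in young tumours. All 3 NMN libraries lay below the old and the parabiosis libraries but overlapped the young ones. NMN minus old was -0.70 ± 0.29 (SE, adjusted p = 0.493), NMN minus parabiosis was -0.98 ± 0.29 (adjusted p = 0.356) and parabiosis minus young, also without overlap, was 0.69 ± 0.29 (adjusted p = 0.266). Summed endothelial markers (9 of 9 genes, none at 0) had the same order of group means, at 130 to 157 CPM in NMN, 173 to 196 in parabiosis, 119 to 208 in old and 111 to 172 CPM in young tumours. Summed monocyte and macrophage markers (10 of 10 genes, none at 0) also separated NMN from parabiosis, at 80.0 to 178 CPM in NMN, 183 to 256 in parabiosis, 158 to 192 in old and 86.5 to 257 CPM in young tumours. The relations of Timp1 to the scores of both lists across libraries are given further below. They do not separate the part of either cell type in the Timp1 values, which was not tested.

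Timp2, which both inhibits metalloproteases and helps Mmp14 to activate the precursor of Mmp2, was at 214, 135 and 191 CPM in NMN, at 146, 126 and 272 CPM in parabiosis, at 176, 149 and 123 CPM in old and at 86.5, 74.6 and 214 CPM in young tumours. The groups overlapped throughout, and young replicate 3 was far above the other 2 young libraries. Timp3 was at 167, 165 and 127 CPM in NMN, at 90.4, 115 and 116 CPM in parabiosis, at 276, 123 and 120 CPM in old and at 143, 116 and 245 CPM in young tumours. Its parabiosis libraries lay below the old and the NMN ones, by narrow gaps to the lowest of each and with old replicate 1 far above. Parabiosis minus old was -0.58 ± 0.33 (SE, adjusted p = 0.930) and NMN minus parabiosis 0.51 ± 0.33 (adjusted p = 0.646).

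Timp4, an inhibitor expressed in brain and heart, was at 39.3, 22.1 and 21.2 CPM in NMN, at 12.2, 16.2 and 17.1 CPM in parabiosis, at 24.3, 32.7 and 18.5 CPM in old and at 19.8, 26.3 and 31.0 CPM in young tumours. Every parabiosis library lay below every library of the other groups. Parabiosis minus old was -0.67 ± 0.27 (SE, adjusted p = 0.903), parabiosis minus young -0.72 ± 0.27 (adjusted p = 0.227) and NMN minus parabiosis 0.78 ± 0.27 (adjusted p = 0.431). In the GRCm38 annotation Timp1 lies inside Syn1, Timp3 inside Syn3 and Timp4 inside Syn2, each on the opposite strand to a synapsin gene of neurons. The protocols describe stranded libraries. No source used here states whether reads were counted by strand, so reads of the partners cannot be told apart. Syn2 reached 128 to 234 CPM in NMN, 135 to 290 in parabiosis, 93.4 to 159 in old and 91.3 to 99.1 CPM in young tumours. Syn1 was at 95.6 to 249.5, 81.1 to 196, 47.8 to 95.5 and 22.4 to 53.8 CPM in the same order of groups. Syn3 was at 50.1 to 62.1, 41.2 to 53.7, 39.0 to 47.6 and 33.2 to 43.9 CPM. The part of these genes in the Timp values was not tested.

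**Figure D4:**
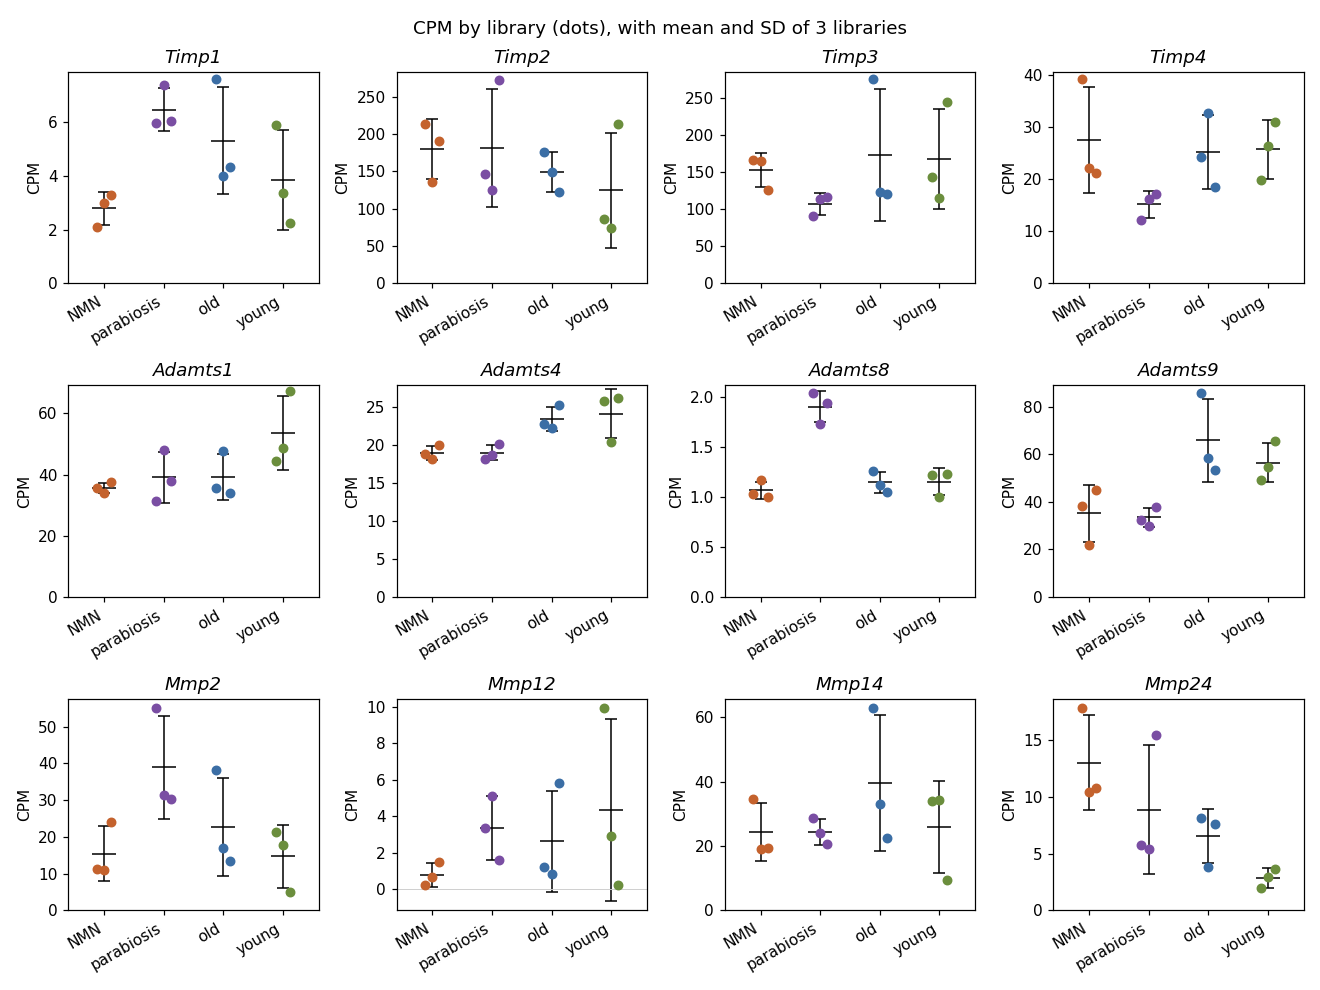
Dots give the CPM of 12 members in each library, and the bars the mean and SD of 3 libraries, for NMN, parabiosis, old and young tumours. Timp4 is lowest in parabiosis (mean 15.2 CPM), Adamts8 is highest there (1.91 CPM), Adamts9 is low in NMN and parabiosis (35.1 and 33.4 CPM) and Mmp24 is lowest in young tumours (2.84 CPM).

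The proteoglycanases, which cut versican, brevican and related lecticans, included 2 members, Adamts9 and Adamts4, whose 6 treated libraries all lay below the 6 untreated ones, a pattern singled out after the values were seen and shared by 0.351% of all genes. Adamts9 (chr6:92772699-92943492, minus strand), a versican-cleaving enzyme, was at 38.4, 21.8 and 45.1 CPM in NMN, at 32.5, 29.8 and 38.0 CPM in parabiosis, at 85.8, 58.4 and 53.3 CPM in old and at 49.3, 54.6 and 65.6 CPM in young tumours. All 6 treated libraries lay below all 6 untreated ones. NMN minus old was -0.92 ± 0.26 (SE, adjusted p = 0.493) and parabiosis minus old -0.93 ± 0.26 (adjusted p = 0.903), while NMN minus young was -0.72 ± 0.26 (adjusted p = 0.114) and parabiosis minus young -0.74 ± 0.26 (adjusted p = 0.191). Both treatments are set against the same old and the same young libraries. Over the alternatives the adjusted p of Adamts9 ranged from 0.127 to 0.884 in NMN against old and from 0.124 to 1.00 in parabiosis against old.

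Adamts4, an aggrecanase that also cuts brevican, had a smaller and tighter difference. Its values were 18.8, 18.2 and 20.0 CPM in NMN, 18.2, 18.8 and 20.1 CPM in parabiosis, 22.8, 22.3 and 25.3 CPM in old and 25.9, 20.4 and 26.2 CPM in young tumours. Again the 6 treated libraries lay below the 6 untreated ones. NMN minus old was -0.29 ± 0.12 (SE, adjusted p = 0.493) and parabiosis minus old -0.29 ± 0.12 (adjusted p = 0.903).

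Adamts8, known as an inhibitor of blood vessel growth, was a low gene with little spread. It was at 1.03, 1.17 and 1.00 CPM in NMN, at 2.04, 1.74 and 1.95 CPM in parabiosis, at 1.27, 1.12 and 1.05 CPM in old and at 1.23, 1.00 and 1.24 CPM in young tumours. The 3 parabiosis libraries lay above the 9 others. Parabiosis minus old was 0.44 ± 0.11 (SE, adjusted p = 0.903), parabiosis minus young 0.43 ± 0.11 (adjusted p = 0.145) and NMN minus parabiosis -0.49 ± 0.11 (adjusted p = 0.237). Adamts15, which lies 20109 bp from Adamts8 on chromosome 9 and also encodes a proteoglycanase, followed another order. It was at 2.85, 2.41 and 2.71 CPM in NMN, at 0.463, 1.13 and 2.19 CPM in parabiosis, at 0.844, 0.374 and 0.903 CPM in old and at 0.409, 0.238 and 3.50 CPM in young tumours, so that NMN exceeded old (1.11 ± 0.43, SE, adjusted p = 0.493) and parabiosis (0.76 ± 0.43, adjusted p = 0.611) without overlap. Young replicate 3 held the highest value of all.

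Adamts1, which is anti-angiogenic and cuts versican and aggrecan, was at 35.5, 34.0 and 37.4 CPM in NMN, at 31.4, 48.0 and 37.9 CPM in parabiosis, at 35.7, 47.7 and 34.1 CPM in old and at 44.5, 48.7 and 67.3 CPM in young tumours. NMN lay below young without overlap, at -0.55 ± 0.19 (SE, adjusted p = 0.109), while old and young overlapped at -0.43 ± 0.19 (adjusted p = 0.731). Its neighbour Adamts5, the main cartilage aggrecanase of the mouse, 53059 bp away on chromosome 16, was at 8.42, 8.87 and 8.80 CPM in NMN, at 9.02, 7.34 and 9.22 CPM in parabiosis, at 5.44, 7.62 and 8.73 CPM in old and at 9.90, 8.10 and 13.9 CPM in young tumours. Old minus young was -0.48 ± 0.21 (SE, adjusted p = 0.729), and the libraries overlapped. Adamts20, whose product acts on versican in pigment cell development, ranged from 11.8 to 28.2 CPM with overlap in all comparisons.

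The substrates of these enzymes were measured in the same libraries. Versican (Vcan) averaged 704 CPM in parabiosis tumours and 1077 CPM in old tumours, or -0.67 ± 0.22 on the log2 scale (SE, adjusted p = 0.903) without overlap, and 821 CPM in NMN tumours, a difference from old of -0.39 ± 0.22 (adjusted p = 0.511), also without overlap. The list of 10 lectican and proteoglycan genes also held Hapln1, Hapln2, Hapln4 and Comp. In it 4 were above and 6 below 0 in parabiosis minus old (median -0.09). There were 5 above and 5 below in NMN minus old and likewise in old minus young, with 0 called in each comparison.

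The procollagen N-propeptidases, Adamts2, Adamts3 and Adamts14, remove the amino-terminal extension from fibrillar procollagens, and Adamts3 also matures the lymphatic growth factor Vegfc. Adamts2 was at 15.7, 9.22 and 12.7 CPM in NMN, at 4.47, 5.67 and 12.8 CPM in parabiosis, at 10.4, 6.05 and 7.87 CPM in old and at 4.95, 4.05 and 5.16 CPM in young tumours. Old and NMN libraries lay above the young ones; old minus young was 0.65 ± 0.33 (SE, adjusted p = 0.758) and NMN minus young 1.22 ± 0.33 (adjusted p = 0.0510), which ranged from 0.00710 to 0.830 over the alternatives. Adamts3 was at 11.2, 9.34 and 23.7 CPM in NMN, at 4.90, 4.27 and 9.74 CPM in parabiosis, at 7.83, 3.66 and 7.34 CPM in old and at 0.681, 0.381 and 15.7 CPM in young tumours. Young replicate 3 set the young mean, and NMN minus young passed only where it was left out (3.26 ± 0.44, SE, adjusted p = 0.00292) and parabiosis minus young likewise (2.19 ± 0.44, adjusted p = 0.0272). NMN minus old, without overlap, was 1.06 ± 0.80 (adjusted p = 0.581) and turned to -0.33 with the neuronal score as a covariate. Adamts14 ranged from 4.38 to 14.3 CPM and overlapped between the groups.

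Collagen genes Col1a2 and Col3a1 were highest in old replicate 1. Col1a2 averaged 10.2 CPM in parabiosis and 81.6 CPM in old tumours (-2.15 ± 0.72 on the log2 scale, SE, adjusted p = 0.903), and old against young (6.33 CPM) gave 2.87 ± 0.72 (adjusted p = 0.702). Col3a1 averaged 4.32 CPM in NMN and 68.7 CPM in old tumours (-3.13 ± 0.87, adjusted p = 0.493), and fibronectin (Fn1) 251 against 1241 CPM (-1.97 ± 0.58, adjusted p = 0.493). The list of 14 collagen and laminin genes also held Fn1, Nid1 and Eln. In it 3 were above and 11 below 0 in NMN minus old and 2 above and 12 below in parabiosis minus old. In old minus young 12 were above and 2 below. Medians were -0.52, -0.57 and 0.69, in that order, with 0 called. Col1a1, Col1a2 and Col3a1 also belong to the fibroblast marker list, whose sum was 486 CPM in old replicate 1; that library's part in these medians was not tested. Col1a2 was at 10.8, 11.6 and 8.03 CPM in parabiosis tumours, against 195, 32.5 and 16.9 CPM in old tumours, and Col3a1 was at 2.02, 4.36 and 6.59 CPM in NMN tumours, against 158, 34.4 and 13.5 CPM in old tumours, so that the lack of overlap did not rest on old replicate 1 alone.

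The other Adamts genes include regulators of blood clotting, microfibrils and cartilage. Adamts13 was at 47.0, 38.3 and 53.6 CPM in NMN, at 37.1, 35.6 and 41.2 CPM in parabiosis, at 34.8, 38.5 and 67.9 CPM in old and at 66.3, 76.5 and 62.4 CPM in young tumours. The NMN and the parabiosis libraries lay below the young ones, at -0.56 ± 0.22 (SE, adjusted p = 0.149) and -0.83 ± 0.22 (adjusted p = 0.145), while old replicate 3 reached the young range (old minus young -0.59 ± 0.22, adjusted p = 0.720). Adamts12, which degrades cartilage oligomeric matrix protein, was at 8.17, 37.6 and 16.6 CPM in NMN, at 11.9, 12.4 and 10.5 CPM in parabiosis, at 27.0, 20.7 and 21.8 CPM in old and at 20.5, 21.8 and 12.2 CPM in young tumours. Parabiosis minus old was -0.93 ± 0.42 (SE, adjusted p = 0.930), and the NMN libraries held both the lowest and the highest value of the gene.

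Adamts10, a microfibril-associated member, was at 14.3, 19.1 and 19.9 CPM in NMN, at 15.9, 18.0 and 12.6 CPM in parabiosis, at 22.3, 26.1 and 18.6 CPM in old and at 23.8, 23.5 and 12.9 CPM in young tumours, with parabiosis minus old at -0.50 ± 0.24 (SE, adjusted p = 0.930). Adamts17, linked to the fibrillin microfibrils of the eye, was at 10.7, 11.0 and 10.6 CPM in NMN, at 10.2, 8.64 and 9.70 CPM in parabiosis, at 7.51, 6.43 and 9.52 CPM in old and at 8.49, 8.91 and 7.84 CPM in young tumours. NMN lay above all other libraries of Adamts17, with NMN minus old at 0.43 ± 0.15 (adjusted p = 0.493). Adamts18 was at 2.15, 0.350 and 0.292 CPM in NMN, at 0.540, 0.367 and 1.47 CPM in parabiosis, at 0.938, 0.486 and 0.339 CPM in old and at 0.136, 0.143 and 0.213 CPM in young tumours, where it was close to the limit of 3 reads. Old minus young was 0.43 ± 0.33 (SE, adjusted p = 0.850) and NMN minus young 0.60 ± 0.33 (adjusted p = 0.291); both turned negative with the neuronal score as a covariate, at -0.10 and -0.41.

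Adamts19, a gene of heart valve development, was at 0.578, 6.88 and 0.793 CPM in NMN, at 0.0386, 2.87 and 0.190 CPM in parabiosis, at 0.141, 0.0374 and 0.489 CPM in old and at 0.0454, 0.286 and 0.810 CPM in young tumours. NMN replicate 2 (177 reads) and parabiosis replicate 2 (86 reads) were high, and NMN minus old was 1.22 ± 0.62 (SE, adjusted p = 0.500). NMN replicate 1 held 14 reads and old replicate 3 held 13, so the lack of overlap with old lies within counting error. Adamts16, singled out after its values were seen, showed the same kind of pattern in the old group, with 22.2, 4.52 and 0.452 CPM in old tumours against 0.0952 to 2.52 CPM in the 9 other libraries. Its old libraries overlapped with each group. Adamts6 ranged from 19.2 to 41.8 CPM, with both ends in the NMN group, and Adamts7, which like Adamts12 degrades cartilage oligomeric matrix protein, averaged 8.47 ± 0.366 CPM in parabiosis and 10.6 ± 1.24 CPM in old tumours (SD, n = 3 each).

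Of the gelatinases, which cut denatured and basement membrane collagen, only Mmp2 was abundant. It was at 11.3, 10.9 and 24.1 CPM in NMN, at 55.1, 31.4 and 30.3 CPM in parabiosis, at 38.1, 16.9 and 13.3 CPM in old and at 21.3, 17.7 and 5.12 CPM in young tumours. Parabiosis libraries exceeded the NMN and young ones without overlap, and old replicate 1 lay within the parabiosis range. Parabiosis minus young was 1.49 ± 0.53 (SE, adjusted p = 0.197), NMN minus parabiosis -1.32 ± 0.53 (adjusted p = 0.494) and parabiosis minus old 0.84 ± 0.53 (adjusted p = 0.930). Mmp9, a gelatinase of neutrophils and inflamed vessels, was at 1.11, 0.700 and 1.96 CPM in NMN, at 0.463, 1.13 and 1.09 CPM in parabiosis, at 1.50, 0.523 and 1.77 CPM in old and at 1.59, 0.476 and 0.554 CPM in young tumours. All groups overlapped, and NMN minus old was 0.00 ± 0.30 (SE, adjusted p = 0.995).

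The membrane-type genes encode proteases anchored at the cell surface. Mmp14, which activates the precursor of Mmp2, was at 34.5, 18.9 and 19.4 CPM in NMN, at 28.7, 24.0 and 20.6 CPM in parabiosis, at 63.0, 33.1 and 22.5 CPM in old and at 33.8, 34.2 and 9.29 CPM in young tumours. The highest value belonged to old replicate 1, the library with the highest fibroblast markers. The lowest belonged to young replicate 3, the one with the lowest such markers (25.8 CPM). Across the 12 libraries the relation of Mmp14 to the fibroblast score (mean log2 deviation of the marker list) did not pass the adjusted test. Pearson r was 0.533 (permutation, adjusted p = 0.269) and Spearman rho was -0.028. Without old replicate 1 and young replicate 3, r was -0.689. The part of these cells was not tested. All groups overlapped. Mmp15, between 38.3 and 124 CPM, and Mmp16, between 54.0 and 105.5 CPM, reached higher values per library but also overlapped in all comparisons.

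Mmp24 (chr2:155775342-155818366, plus strand) encodes a membrane-type protease of neurons that cleaves N-cadherin and the amyloid precursor protein. It was at 17.8, 10.4 and 10.8 CPM in NMN, at 5.78, 5.44 and 15.4 CPM in parabiosis, at 8.12, 3.81 and 7.64 CPM in old and at 1.95, 2.95 and 3.62 CPM in young tumours. The young libraries lay below all 9 libraries of old hosts, and the NMN libraries above the old ones. NMN minus young was 1.85 ± 0.39 (SE, adjusted p = 0.0291), a ratio of means of 4.58. NMN minus old was 0.91 ± 0.39 (adjusted p = 0.493), old minus young 0.94 ± 0.39 (adjusted p = 0.727) and parabiosis minus young 1.24 ± 0.39 (adjusted p = 0.161).

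The call of Mmp24 rested on several libraries. Without young replicate 1 the adjusted p was 0.125, without young replicate 2 it was 0.130, without NMN replicate 1 it was 0.103 and without NMN replicate 3 it was 0.0663, and edgeR on reads recovered from the CPM steps gave 0.0526. Neuronal markers (10 of 10 genes, none at 0 in any library) had the same order of group means as Mmp24, with sums of 1249 to 3128 CPM in NMN, 1000 to 2313 in parabiosis, 566 to 1076 in old and 131 to 748 CPM in young tumours. Markers of myelinating oligodendrocytes (10 of 10 genes, none at 0) followed that order too. Their sums averaged 1203 CPM in NMN, 818 in parabiosis, 635 in old and 491 CPM in young tumours. The part of either cell type in the Mmp24 values was not tested. With the neuronal score as a covariate the difference was 0.61 ± 0.52 (SE, adjusted p = 0.572). In that fit 0 genes of any kind passed in NMN against young, where 6.9% passed in the main fit. The scores of NMN (0.6918 to 1.725) and young libraries (-2.355 to -0.2297) did not overlap, so group and score cannot be told apart here. Mmp24 overlaps BC029722 on the other strand, and reads of the pair cannot be told apart.

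Mmp17, a membrane-type gene whose product is held by a lipid anchor, was at 23.2 to 47.1 CPM in NMN, 23.9 to 41.8 in parabiosis, 14.6 to 31.9 in old and 12.3 to 26.5 CPM in young tumours, with overlap in all comparisons. Mmp25, the lipid-anchored protease of leukocytes, was at 0.289 to 0.895 CPM in NMN and 1.38 to 2.24 CPM in parabiosis tumours, without overlap (NMN minus parabiosis -0.86 ± 0.32, SE, adjusted p = 0.460), and at 0.640 to 1.98 in old and 0.384 to 2.05 CPM in young tumours. Of the neutrophil marker genes 8 of 10 were at 0 in at least 1 library, and the others were Cxcr2, at 48.5 to 67.2 CPM, and Csf3r, at 5.80 to 11.9 CPM.

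The macrophage elastase gene Mmp12 and the secreted collagenase and stromelysin genes lie in 1 cluster on chromosome 9, in the order Mmp13, Mmp12, Mmp1b, Mmp3, Mmp1a, Mmp10, Mmp8, Mmp27, Mmp20 and Mmp7. Of 27 members with a promoter in the RefSeq table (GRCm38.p6), 4 held the AP-1 motif TGANTCA (the same letters on both strands) in the 250 bases before an annotated start, against 6.75% of 32851 promoters. All 4 are cluster genes, and they are shown because they share both place and motif. The 120 bases before the start are given on the plus strand with AP-1 and the TATA box TATAAA (both strands searched; held by 12.4% of promoters) in capitals. The Mmp12 start shown is 1 of 2 in the table, and the other held neither motif.
Mmp13, chr9:7272394-7272513: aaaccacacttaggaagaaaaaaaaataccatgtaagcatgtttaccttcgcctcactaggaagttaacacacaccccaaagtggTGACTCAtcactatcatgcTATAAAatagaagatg
Mmp12, chr9:7347254-7347373: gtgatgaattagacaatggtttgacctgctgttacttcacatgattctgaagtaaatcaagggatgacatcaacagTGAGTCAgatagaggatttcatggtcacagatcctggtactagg
Mmp3, chr9:7445702-7445821: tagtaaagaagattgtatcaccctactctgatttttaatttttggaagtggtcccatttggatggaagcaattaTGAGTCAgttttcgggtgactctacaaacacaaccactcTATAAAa
Mmp10, chr9:7502222-7502341: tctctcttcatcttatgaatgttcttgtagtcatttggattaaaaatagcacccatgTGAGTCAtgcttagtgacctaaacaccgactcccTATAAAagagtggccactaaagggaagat
In these sequences AP-1 began 35, 44, 46 and 63 bases before the start of Mmp13, Mmp12, Mmp3 and Mmp10. The Mmp24 promoter is given for contrast, with the GC box (GGGCGG, or CCGCCC on the other strand, held by 32.7% of promoters) in capitals, and it held neither AP-1 nor the TATA box.
Mmp24, chr2:155775222-155775341: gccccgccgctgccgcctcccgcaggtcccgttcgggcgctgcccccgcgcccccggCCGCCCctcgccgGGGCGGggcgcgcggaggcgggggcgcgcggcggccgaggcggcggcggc

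The cluster genes were low and uneven. Mmp12 was at 0.206, 0.661 and 1.50 CPM in NMN, at 3.35, 5.11 and 1.62 CPM in parabiosis, at 1.22, 0.859 and 5.80 CPM in old and at 9.90, 2.90 and 0.256 CPM in young tumours. NMN lay below parabiosis without overlap (-1.26 ± 0.72, SE, adjusted p = 0.611), and the young libraries alone covered nearly the whole range. Mmp13, a collagenase, was at 0.495 to 2.92 CPM in NMN, 0.475 to 2.78 in parabiosis, 1.03 to 1.62 in old and 0.469 to 3.59 CPM in young tumours.

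Mmp3, a stromelysin, was at 0, 0 and 0.626 CPM in NMN, at 0.116, 0.267 and 0.0475 CPM in parabiosis, at 0.0938, 0.149 and 0.903 CPM in old and at 0.136, 0.143 and 0.298 CPM in young tumours, and most of these values lay near or under 3 reads. Mmp8, the neutrophil collagenase, was at 0, 0 and 1.17 CPM in NMN, at 0.116, 0.267 and 0.0951 CPM in parabiosis, at 0.0469, 0.0747 and 0.0753 CPM in old and at 0.0908, 0.143 and 0.298 CPM in young tumours. Its old libraries held 1 or 2 reads each, so the lack of overlap with young (-0.14 ± 0.25, SE, adjusted p = 0.960) and with parabiosis (0.12 ± 0.25, adjusted p = 0.963) lies within counting error. Mmp10, the other secreted stromelysin of the cluster, was at 0 in 5 libraries and at most at 0.567 CPM. Mmp11, a stromelysin outside the cluster that is activated inside the cell, averaged 2.70 ± 0.342 CPM in parabiosis and 4.82 ± 1.34 CPM with young hosts (SD, n = 3 each), without overlap.

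The list of AP-1 and NF-kB factor genes, known to act on this cluster, also held Ets1 and Ets2. It showed 3 above and 7 below 0 in NMN minus old and 8 above and 2 below in parabiosis minus old. In old minus young 3 were above and 7 below. Medians were -0.14, 0.09 and -0.07, in that order, with 0 of 10 called in each. Fos averaged 26.8 CPM in NMN and 42.7 CPM in young tumours (-0.65 ± 0.17, SE, adjusted p = 0.0465). It was the 1 gene of 10 in the list that was called there, against 6.9% of all genes. As for every gene in that comparison, the call was lost without young replicate 1 or 2 and with the neuronal score as a covariate, where 0 genes passed.

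The remaining Mmp genes were low. Mmp19 averaged 3.19 ± 0.442 CPM in parabiosis and 4.43 ± 0.601 CPM in old tumours, and Mmp21, a gene of left-right asymmetry, 0.259 ± 0.0582 and 0.648 ± 0.288 CPM in the same order (SD, n = 3 each). Mmp28, an epithelial and neural member, was at 0.619, 0.972 and 1.08 CPM in NMN, at 1.00, 1.87 and 1.85 CPM in parabiosis, at 1.45, 1.27 and 1.28 CPM in old and at 1.73, 1.14 and 0.810 CPM in young tumours, with NMN minus old at -0.31 ± 0.19 (SE, adjusted p = 0.531). Mmp23 stayed between 0 and 0.694 CPM.

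Members without overlap were also counted in the 3 remaining comparisons. In NMN against young, 4 of 41 members were higher against 18.3% of all genes and 4 lower against 9.85%, with 8 of 41 against 24.3% at an unadjusted p under 0.05. In parabiosis against young, 5 of 41 were higher against 13.5% of genes and 6 lower against 9.56%, with 12 of 41 against 16.9% at an unadjusted p under 0.05. In NMN against parabiosis, 6 of 41 were higher against 6.99% of genes and 5 lower against 7.34%, with 7 of 41 against 9.25% at an unadjusted p under 0.05. The members higher in NMN than in parabiosis included Timp3, Timp4 and Adamts15, and those lower included Timp1, Mmp2, Mmp12, Mmp25 and Adamts8.

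Activators and other inhibitors of the proteases were measured beside the members. Bsg, a surface glycoprotein that induces metalloproteases, averaged 158 CPM in parabiosis and 117 CPM in old tumours (0.43 ± 0.10, SE, adjusted p = 0.903), and Plau, the urokinase that starts plasmin formation, 4.98 CPM in NMN and 10.5 CPM in old tumours (-0.98 ± 0.34, adjusted p = 0.493), both without overlap. Klk6, a serine protease of oligodendrocytes, had a mean of 5.93 CPM with old hosts and 1.16 CPM with young hosts (1.62 ± 0.38, adjusted p = 0.648). Of 8 activator genes tested, 0 were called in each of these 3 comparisons, with 3 above and 5 below 0 in NMN minus old, 7 above and 1 below in parabiosis minus old and 3 above and 5 below in old minus young.

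Among 15 inhibitors other than Timp, 10 were above and 5 below 0 in each of the 3 main comparisons, with medians of 0.24 for NMN minus old, 0.04 for parabiosis minus old and 0.36 for old minus young, and 0 were called. Cst3, the cathepsin inhibitor cystatin C, had a mean of 416 CPM with old hosts and 764 CPM with young hosts (-0.89 ± 0.22, SE, adjusted p = 0.702). In NMN against young the neuronal serpin Serpini1 was called, at 80.0 against 12.7 CPM (2.71 ± 0.57, adjusted p = 0.0293). This call was lost without young replicate 1 or 2 and with the neuronal score as a covariate, and neuronal markers summed to 1249 to 3128 CPM in NMN and 131 to 748 CPM in young tumours.

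The Adamts-like genes encode matrix proteins with the same repeats but no protease domain, and 2 of 5 were called in NMN against young, where 6.9% of all genes were called. Adamtsl1 averaged 4.03 CPM in NMN and 0.852 CPM in young tumours (1.45 ± 0.26, SE, adjusted p = 0.0260) and Adamtsl3 4.82 and 1.04 CPM (1.42 ± 0.35, adjusted p = 0.0402). In old minus young, both were also above young without overlap (1.09 ± 0.26, adjusted p = 0.648, and 0.99 ± 0.35, adjusted p = 0.720). Of 11 cytokine genes tested, Cxcl12, a chemokine, was called in NMN against young at 11.0 against 2.34 CPM (1.85 ± 0.29, adjusted p = 0.0213), as was Lif, a cytokine of the interleukin family, at 1.72 against 4.36 CPM (-0.98 ± 0.15, adjusted p = 0.0213). All 4 calls were lost without young replicate 1 or 2 and with the neuronal score as a covariate.

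Because neuronal, vascular and myeloid markers varied among tumours, each member was also related to the scores of 4 marker lists (mean log2 deviation of the list) across the 12 libraries, which gave 164 relations whose p-values were adjusted together. Mmp24 rose with the neuronal score (Pearson r = 0.896, permutation p = 5e-05, adjusted 0.0082; Spearman rho = 0.902, permutation p = 0.00011, adjusted 0.018), with r = 0.877 without the 2 farthest libraries, young replicates 1 and 2. Mmp17 did so too (r = 0.906, permutation p = 0.00015, adjusted 0.0123; rho = 0.825, permutation p = 0.00167, adjusted 0.0391), with r = 0.82 without those libraries, as did Adamts2 (r = 0.784, permutation p = 0.00149, adjusted 0.0272; rho = 0.832, permutation p = 0.00112, adjusted 0.0367), with r = 0.755. The permutations ignored the groups, so the p-values of all 164 relations also reflect differences between groups that members and scores share. For the deviations of each library from its group mean, r was 0.69 for Mmp24, 0.914 for Mmp17 and 0.665 for Adamts2. It was 0.771 for Adamts3 and 0.941 for Timp2. Adamts3 and Timp2 passed with Pearson's r (0.806, permutation p = 0.00266, adjusted 0.0333, and 0.856, permutation p = 0.00055, adjusted 0.0164) but not with the adjusted Spearman test (rho = 0.727, permutation p = 0.00992, adjusted 0.123, and rho = 0.755, permutation p = 0.00651, adjusted 0.0971), and r was 0.349 and 0.605 without young replicates 1 and 2.

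Mmp2 rose with the monocyte and macrophage score (r = 0.779, permutation p = 0.00223, adjusted 0.0305; rho = 0.867, permutation p = 0.00055, adjusted 0.0262) and with the endothelial score (r = 0.839, permutation p = 0.00072, adjusted 0.0169; rho = 0.825, permutation p = 0.00165, adjusted 0.0391), with r = 0.718 and 0.735 without the 2 farthest libraries of each score. Mmp25 rose with the monocyte and macrophage score (r = 0.847, permutation p = 0.00033, adjusted 0.0135; rho = 0.86, permutation p = 0.00064, adjusted 0.0262; r = 0.788 without 2 libraries). Timp1 rose with the endothelial score (r = 0.821, permutation p = 0.00105, adjusted 0.0215; rho = 0.86, permutation p = 0.00063, adjusted 0.0262; r = 0.931 without 2 libraries). For the deviations from group means, r was 0.83 (monocyte and macrophage) and 0.765 (endothelial) for Mmp2. It was 0.749 for Mmp25 and 0.789 for Timp1. With the fibroblast score 0 of 41 members passed the adjusted test. In all, 5 members passed with Pearson's r for the neuronal, 5 for the monocyte and macrophage and 5 for the endothelial list, of which 3, 2 and 2 also passed with Spearman's rho. Of each 5 for the monocyte and macrophage and the endothelial list, 1 was negative, Adamts15 (r = -0.769, permutation, adjusted p = 0.0305) and Adamts7 (r = -0.838, permutation, adjusted p = 0.0135), neither of which passed with Spearman's rho. Timp1 also passed with Pearson's r for the monocyte and macrophage score (r = 0.824, permutation, adjusted p = 0.0164). Adamts14 did so for the monocyte and macrophage score (r = 0.801, permutation, adjusted p = 0.0305) and the endothelial score (r = 0.766, permutation, adjusted p = 0.0333). Mmp25 did so for the endothelial score (r = 0.768, permutation, adjusted p = 0.0435). None of these relations passed with Spearman's rho (permutation, adjusted p = 0.0605, 0.281, 0.0786 and 0.179, in that order). Their r for the deviations from group means was 0.755, 0.783, 0.851 and 0.815 in the same order. It was -0.728 for Adamts15 and -0.828 for Adamts7.

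**Figure D5:**
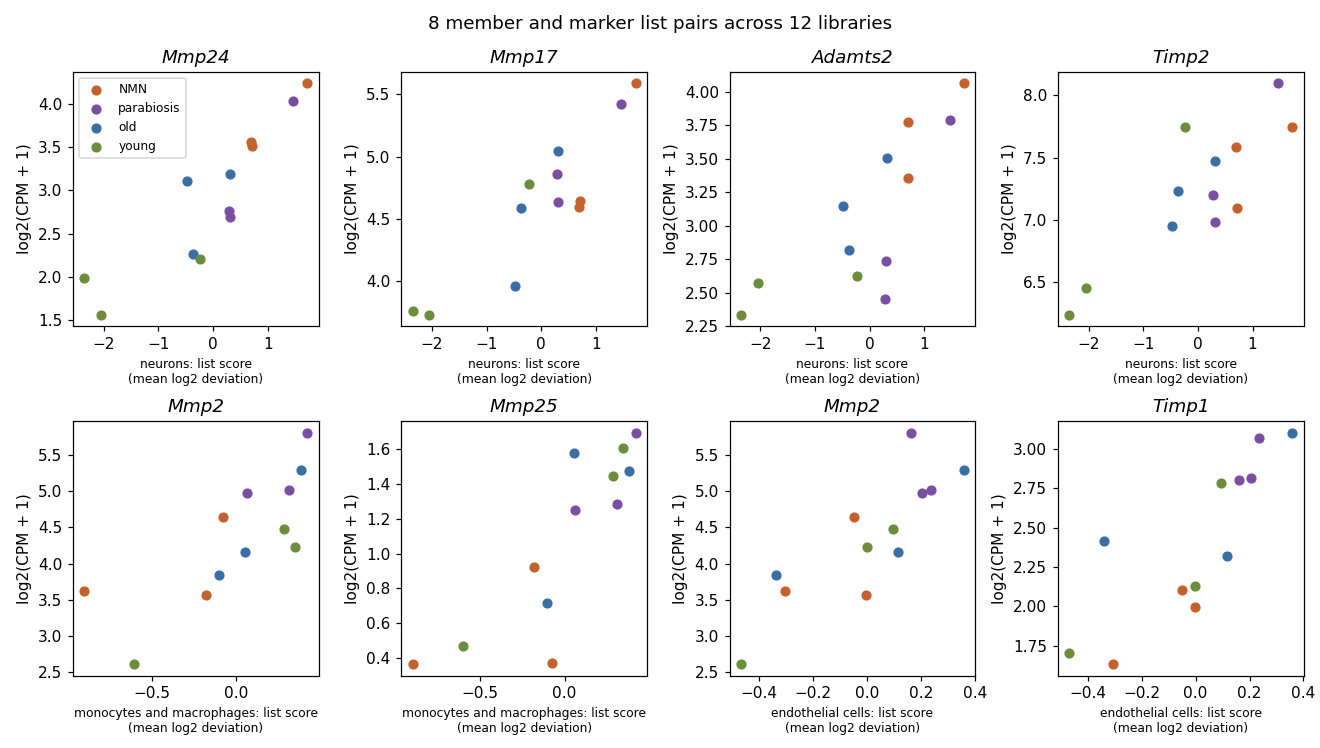
Each point is 1 library, coloured by group, with the score of a marker list on the x axis (mean log2 deviation) and log2(CPM + 1) of a member on the y axis, for 8 pairs. Mmp24 and Mmp17 follow the neuronal score (r = 0.896 and 0.906), and young replicates 1 and 2 lie at the low end of that score.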

How the data were processed

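RNA of 12 tumours was sequenced as paired ends from stranded, ribosome-depleted libraries, per the labels' protocols, which describe the RNA as taken from cells although the source is named as tumour tissue. The submitters' processing notes list FastQC, Bowtie2 (2.1.0), RSEM (1.2.15), edgeR and the builds mm10 and GRCm38, without their roles. The authors deposited a single table, which by its name holds CPM after TMM scaling, for 24054 symbols, of which 3064 were at 0 in all libraries and 27 had turned into dates.

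Every deposited CPM value above 0 (100%, tolerance 0.01) was a whole multiple of the value of 1 read, so whole reads could be recovered; on these, edgeR 4.0.16 called 106 genes and DESeq2 1.42.0 called 2439 genes in NMN against young.

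The test used log2(CPM + 1) of the 17368 genes above 0.2 CPM in at least 3 libraries, in limma 3.58.1 (R 4.3.3, trend of the variance), with a mean for each group over all 12 libraries. Tests were two-sided, with Benjamini-Hochberg adjustment over all genes. Fits were tested on simulated data. Positions come from GENCODE M21 (GRCm38). Relations across libraries used 100000 permutations of all 12 libraries, without regard to group.

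The members and gene lists were chosen with earlier results of these data known. By rule, values in every library are given for 12 members (Mmp2, Mmp3, Mmp9, Mmp12, Mmp14, all Timp, Adamts1, Adamts4 and Adamts5) and for members without overlap, ranked by absolute log2 difference, up to 5 in each direction for the 3 main comparisons and up to 3 for the others; up to 3 genes of each other list with the smallest p are named.

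Same-numbered libraries deviated together in all 3 pairs only in NMN against old (correlations 0.371, 0.213 and 0.307) and parabiosis against young (0.486, 0.389 and 0.562). The numbers come from the sample titles, which do not say what a number stands for.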

Additional observations from a re-analysis of the deposited data

How the results depend on the processing

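With 3 mice a group, depth limited what low genes can show, and Mmp3, Mmp8 and Mmp10 lay near 3 reads. DESeq2 called 53 genes in NMN against old, 48 in parabiosis against old, 77 in old against young, 2439 in NMN against young, 984 in parabiosis against young and 238 in NMN against parabiosis. Members called in NMN against young numbered 2 at a pseudocount of 0.1 (8.04% of all genes), 2 of 34 with a filter at 1 CPM (8.15%), 0 with edgeR (106 genes) and 3 with DESeq2 (14.0%), which also called 3 in parabiosis against young (5.67%). Without a filter 742 genes passed in NMN against young and 3 in the F test. The replicate block gave 2 members in NMN against young, Mmp24 and Adamts2 (adjusted p = 0.0410), against 7.96% of all genes, and changed no other call of a member.

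Quantile normalization moved the median of all genes to -0.14 in NMN against young. Under it the members' median was -0.076 in old against young, -0.15 in NMN against young and -0.12 in parabiosis against young. Members without overlap then numbered 2 lower in old against young (10.7% of all genes), 1 higher in parabiosis against old (5.1%), 2 higher and 9 lower in NMN against young (12.3% and 19.5%) and 10 lower in parabiosis against young (18.4%). The members' median in parabiosis against young was -0.12 with edgeR and -0.10 with DESeq2, and in NMN against parabiosis 0.13 with edgeR and 0.12 with DESeq2.

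Other settings were chosen after seeing the data. Leaving out the libraries under 10 CPM of Xist removed old replicates 1 and 2 and young replicate 3. Old replicate 3 was then the only old library, and young replicates 1 and 2 were the only young ones. The spread among old tumours cannot be measured from 1 library. No conclusion is therefore drawn from the calls against old or in the F test under that setting, and its medians against old rest on that tumour. Without the 3 libraries under 10 CPM of Xist, genes called numbered 1 in NMN against old, 4 in parabiosis against old, 2 in old against young, 281 in parabiosis against young, 1 in NMN against parabiosis and 64 in the F test, and members called 4 in NMN against young (7.76% of all genes) and 1 in parabiosis against young (1.62%). The members' median was then 0.0082 in NMN against old, 0.0755 in parabiosis against old, -0.039 in old against young and -0.12 in parabiosis against young. With the neuronal score as a covariate, genes called numbered 9 in old against young, 0 in NMN against young and 693 in parabiosis against young, and members called 0 in NMN against young and 4 in parabiosis against young (Adamts7, Mmp13, Mmp23 and Timp3; 3.99% of all genes). The members' median was then 0.0157 in NMN against old, -0.12 in parabiosis against old, 0.13 in old against young, 0.20 in NMN against young and 0.087 in parabiosis against young. Estimates turned to -0.41 for Adamts18 in NMN against young, -0.10 for Adamts18 in old against young and -0.33 for Adamts3 in NMN against old; the cause was not tested. Without old replicate 1, members without overlap numbered 8 higher in NMN against old (19.7% of all genes) and 5 higher in parabiosis against old (15.8%).

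Leaving out 1 library at a time gave 0 to 2 genes called in NMN against old, 0 to 2 in parabiosis against old, 0 to 3 in old against young, 0 (without young replicate 1 or 2) to 2100 (without young replicate 3) in NMN against young, 0 to 670 in parabiosis against young, 0 to 1 in NMN against parabiosis and 0 to 680 in the F test. Members called ranged from 0 to 5 in NMN against young, from 0 to 1 in parabiosis against young and from 0 to 2 in the F test, each highest without young replicate 3 (12.1%, 3.86% and 3.92% of all genes). The members' median ranged from -0.12 to 0.0511 in parabiosis against old, from -0.015 to 0.13 in old against young, from -0.16 to 0.0092 in NMN against young, from -0.16 to 0.13 in parabiosis against young and from 0.023 to 0.16 in NMN against parabiosis. For the 38 differences of members named for a lack of overlap, the settings gave 793 values, of which 776 kept direction and side of the threshold, 8 newly passed, 6 no longer passed and 3 changed sign; other members are not in this count.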
